A study of Mus musculus with 3 samples.

Results

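The genes described here are 8 genes that are used as markers of Schwann cells, the glia of peripheral nerves, and of the neural crest, the embryonic cell population from which Schwann cells and melanocytes arise: S100b, Ngfr, Sox10, Mbp, Pmp22, Erbb3, Scrg1 and Gap43. They were found through the RefSeq accession carried by each array probe, and 11 probes matched these 8 genes, out of 39429 probes and 20886 named genes on the array. Total RNA from mouse tail-tip fibroblasts, cells grown out of the skin and connective tissue of the tail tip, was measured on 1-colour oligonucleotide microarrays on day 8 after introduction of 4 reprogramming factors (Oct4, Sox2, Klf4 and c-Myc), which all groups received. The old p16-/- group came from 22-month-old mice that lack p16, the product of Cdkn2a that holds back the cell cycle by inhibiting cyclin-dependent kinases. The old WT group came from 22-month-old wild-type mice and the young WT group from 2-month-old wild-type mice. The labels speak of 2 experiments with different donors, but 1 array per group was analysed here and how many donors it holds is not stated, so no test or p-value could be had. The comparisons ask how the age of the donor and the loss of p16 bear on cells on the way to pluripotency.

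Sox10 is the transcription factor that specifies the glial and melanocyte lineages of the crest, and it is known to activate genes for glial receptors and myelin, Erbb3 among them. Erbb3 is the neuregulin receptor through which axons keep Schwann cells alive, and Ngfr (p75, the low-affinity neurotrophin receptor) and Gap43 (a growth-associated membrane protein) mark immature Schwann cells and those that respond to nerve injury. Mbp and Pmp22 encode proteins of compact myelin, and S100b encodes a calcium-binding protein of glia. Several of these genes are not restricted to glia: S100b and Scrg1 are also expressed in cartilage, S100b in adipocytes, Gap43 in growing axons, Ngfr in mesenchymal cells and Pmp22 in fibroblasts.

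Of 43020 spots that were not controls, the scanner software called 25110 (58.4%) well above background for old p16-/-, 26504 (61.6%) for old WT and 24682 (57.4%) for young WT. The 3 arrays lay on 1 slide and were read in 1 scan. Xist had processed signals of 1387 and 1548 on the old p16-/- and old WT arrays and lay at background (13.8) on young WT, whereas the Y-linked Ddx3y was well above background on young WT alone, at 3949. Age and donor sex therefore cannot be told apart in the comparisons with young WT. Cdkn2a had signals of 28065 on old p16-/-, 65464 on old WT and 62705 on young WT by its brighter probe. A second probe read 2266, 5896 and 5667 on the same arrays. Since the files do not say whether either probe lies in the deleted part, this does not check the genotype. Of 20825 genes with a value on every array, 71.7% were well above background on at least 1 array and 61.9% on all 3. The fibroblast markers were well above background on all 3 arrays in 14 of 14 cases. They went both ways. Thy1, a surface marker of fibroblasts, stood at 3287 on old p16-/-, against 52045 on old WT and 69467 on young WT. Pdgfra stood at 2682 on old p16-/-, against 884 on old WT and 651 on young WT, and Fap at 1668, against 587 and 450.

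Levels below are processed signals, background-subtracted spot intensities on a linear scale, and differences are log2 ratios after subtracting each array's 75th percentile. A ratio is a bound where only 1 of the 2 arrays was well above background, and a gene is counted in a comparison if it was so on at least 1. Scrg1, S100b and Ngfr, 3 of 7 counted genes, were 2-fold or more higher in old p16-/- over old WT, Mbp was 2-fold or more lower, and the median log2 ratio of the 7 was 0.94. Among all 14691 genes counted there, 5.89% passed 2-fold upward and 6.61% downward, with a median of 0.02. In old WT over young WT, S100b and Ngfr, 2 of 6 counted genes, passed 2-fold upward and 0 downward, with a median of 0.76, against 2.92% higher and 3.17% lower of 14546 genes and a median of 0.00. For old p16-/- over young WT this held for 5 of 7 (Scrg1, S100b, Ngfr, Sox10 and Gap43) upward and 0 downward, with a median of 1.67, against 6.34% and 6.96% of 14281 genes and a median of 0.03. Each array serves in 2 of these comparisons, so they are not independent of each other. RNA was taken from whole cultures, in which more cells of a type and more RNA per cell cannot be told apart.

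**Figure D1:**
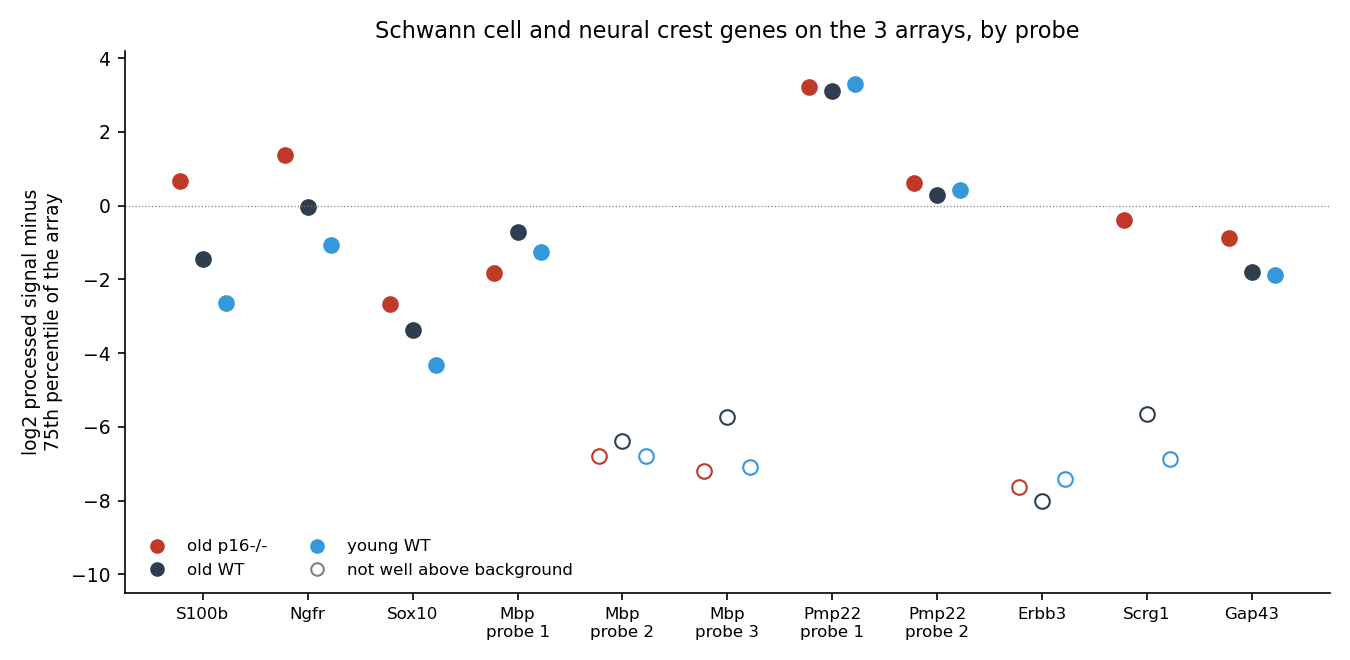
Level of every probe of the 8 genes (log2 processed signal minus the 75th percentile of the array) on the old p16-/-, old WT and young WT arrays, 1 array per group, with open circles where the probe was not well above background. S100b, Ngfr and Sox10 are highest on old p16-/- and lowest on young WT, Scrg1 is above background on old p16-/- alone, and Erbb3 and 2 of 3 Mbp probes are at background on all arrays; levels are to be compared within a probe.

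S100b, the calcium-binding protein of glia, had the largest measured difference of the 8 genes. Its 1 probe, on 1 spot, read 3241 on old p16-/-, 749.9 on old WT and 339.8 on young WT, well above background on each. The signal was thus highest on old p16-/- and lowest on young WT. The log2 ratio of old p16-/- over old WT was 2.11 (4.31-fold), that of old WT over young WT was 1.20 (2.30-fold) and that of old p16-/- over young WT was 3.31 (9.91-fold). Of all counted genes, S100b included, the share as high or higher was 1.85% in the first of these comparisons, 2.14% in the second and 0.385% in the third. The error that can be read from these arrays is that between spots: probes with 10 spots and a signal of 300 to 1000 had a median SD of 0.0731 log2 units on old WT and 0.0776 on young WT, and those over 3000 had 0.0450 on old p16-/-. The differences of S100b exceed that spot error, which holds no biological spread. Both WT readings of S100b, each from 1 spot, nevertheless lie within the range of stray calls given below for probes at background, so the ratio of old WT over young WT rests on such readings; the old p16-/- reading lies above that range.

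Ngfr, the p75 neurotrophin receptor, was measured with 10 spots of 1 probe per array and so carries its own technical error. The signals ranged between 5226 and 5530 on old p16-/- (median 5381), between 1865 and 2036 on old WT (median 1996) and between 980.5 and 1059 on young WT (median 1026). The 3 sets of spots did not overlap. The mean level was 1.38 ± 0.03 on old p16-/-, -0.05 ± 0.04 on old WT and -1.06 ± 0.04 on young WT (log2 relative to the 75th percentile, SD over 10 spots). The ratio of old p16-/- over old WT was 1.43 log2 units (2.69-fold), that of old WT over young WT 1.01 (2.01-fold) and that of old p16-/- over young WT 2.44 (5.42-fold). The second of these lies at the 2-fold threshold and was short of it with median scaling (0.97) and with normexp background correction (0.95). The share of counted genes as high or higher was 3.60% in the first, 2.89% in the second and 1.12% in the third.

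**Figure D2:**
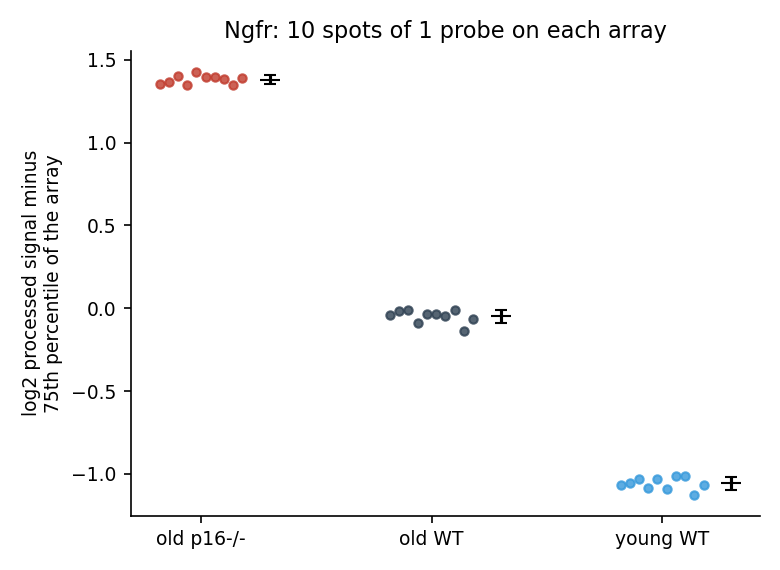
Ngfr level (log2 processed signal minus the 75th percentile of the array) at each of its 10 spots on the old p16-/-, old WT and young WT arrays, with the mean and SD over spots beside them. The spots of an array lie within a narrow band and the 3 bands are separate; spots are technical repeats on 1 array, not biological replicates.

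S100b and Ngfr, which were 2-fold or more higher in all 3 comparisons, differ in the sequence before their transcription start. The 250 bases upstream of each annotated start are shown for these genes because the results turn on them. The promoter sequences at hand, on GRCm38.p6, covered 3 of the 8 genes (S100b, Ngfr and Pmp22). Capitals mark CG dinucleotides. The S100b window is chr10:76253586-76253835 on the plus strand and the Ngfr window is chr11:95587699-95587948 on the minus strand, each written 5′ to 3′ along the gene.
S100b: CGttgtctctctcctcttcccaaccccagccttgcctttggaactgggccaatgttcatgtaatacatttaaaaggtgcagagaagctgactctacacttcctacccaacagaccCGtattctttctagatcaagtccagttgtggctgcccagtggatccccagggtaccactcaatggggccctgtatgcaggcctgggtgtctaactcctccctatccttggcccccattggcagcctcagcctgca
Ngfr: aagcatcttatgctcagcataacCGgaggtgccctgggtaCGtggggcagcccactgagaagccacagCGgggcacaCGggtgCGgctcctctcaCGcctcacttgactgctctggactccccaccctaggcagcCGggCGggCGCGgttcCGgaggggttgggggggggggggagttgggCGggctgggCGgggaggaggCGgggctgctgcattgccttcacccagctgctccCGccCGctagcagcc
The S100b window holds 2 CG dinucleotides and 53.6% G and C, and the Ngfr window holds 16 and 70.4%. The median over 32851 promoters is 6, with 81.2% holding at least 2 and 25.4% at least 16. Both strands were searched for the Sox letters ACAAAG and ACAATG, the E-box forms CAGCTG and CACCTG, the AP-1 letters TGACTCA, and TATAAA. The S100b window holds none of them. The Ngfr window holds 1 match, CAGCTG, whose first base is at position -25 from the start, so no matches overlap. Among all promoter windows of this length, 16.5% hold ACAAAG, 10.7% ACAATG, 13.0% CAGCTG, 17.2% CACCTG, 4.46% TGACTCA and 12.4% TATAAA.

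Sox10, the lineage regulator, was dim. Its 1 probe, on 1 spot, read 326 on old p16-/-, 199 on old WT and 106 on young WT, well above background on each array. The order was that of S100b and Ngfr, at a lower brightness. Between old p16-/- and old WT the log2 ratio was 0.71 (1.64-fold) and between old WT and young WT 0.96 (1.95-fold), both under 2-fold, whereas old p16-/- over young WT gave 1.67 (3.19-fold). At signals of 100 to 300, the median SD between spots was 0.0851 on old WT and 0.0995 on young WT. All 3 readings of Sox10 lie in the range of stray calls. Of 1400 spots of probes that were mostly not above background on old p16-/-, 69 (4.93%) passed the call, the brightest at 870.4. On old WT 81 of 1290 did (6.28%, the brightest at 794), and on young WT 66 of 1390 (4.75%, the brightest at 694). These counts keep spots marked as outliers, which were left out of the gene levels. Whether the brightest stray spots were among them was not looked at, so the range may be too wide. Normexp correction gave 0.59 for Sox10 in old WT over young WT and 1.14 in old p16-/- over young WT.

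Scrg1, named for its response to scrapie infection of the brain, was the gene with the largest difference. Its 1 spot read 1569 on old p16-/-, and it was not well above background on old WT (41.1) or young WT (18.1). It was thus well above background on 1 array of 3, at a signal over the highest stray spot of 870.4. Its bound for old p16-/- over old WT was 5.25 log2 units (38.1-fold), with the old WT reading of 41.1 itself as the dim side. Over young WT the bound was 4.88 (29.4-fold), with the lowest signal called above background there, 55.4, as the dim side. Of 14691 genes counted for old p16-/- over old WT, 10 including Scrg1 lay as high or higher. With normexp correction the first bound was 3.55 and the second 3.53, so the larger values are not strict minima. No ratio of old WT over young WT is given for Scrg1, since neither array was above background.

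Gap43, the growth-associated protein, read 1129 on old p16-/-, 585 on old WT and 582 on young WT. It was higher on old p16-/- than on both WT arrays, which lay within 0.07 log2 units of each other, less than the spot error of 0.0731 at that brightness. Both WT readings lie in the range of stray calls, and the old p16-/- reading lies above it. The log2 ratio was 0.94 for old p16-/- over old WT (1.92-fold) and 1.01 for old p16-/- over young WT (2.02-fold). The value against young WT was under 2-fold in 3 alternatives, the lowest of them 0.94 with normexp correction. Of counted genes, 6.34% lay as high or higher in the comparison with old WT.

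The genes of compact myelin did not share this order. The 1 Mbp probe that was well above background, of accession NM_001025245, read 579 on old p16-/-, 1259.8 on old WT and 894 on young WT. It was lowest on old p16-/-, at a signal within the range of stray calls, with log2 ratios of -1.13 over old WT and -0.57 over young WT, and old WT over young WT was 0.56. The other 2 Mbp probes, both of accession NM_010777, stayed at background on all arrays, with signals of up to 18.5 on old p16-/-, 38.9 on old WT and 19.1 on young WT. The probes of Mbp therefore differ in detection. The Mbp locus is known to give, besides the myelin transcripts, the Golli transcripts from an upstream start, which cells without myelin also make. Pmp22, also a growth-arrest gene of fibroblasts, was the brightest of the set. Its brighter probe read 19051 on old p16-/-, 17706 on old WT and 21018 on young WT, and its second probe 3171, 2510.1 and 2852. The log2 ratio of old p16-/- over old WT was 0.10 by the brighter and 0.33 by the second probe, and that of old WT over young WT was -0.19 and -0.12. No Pmp22 value came near 2-fold.

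Erbb3, the neuregulin receptor of Schwann cells, lay at background on all 3 arrays, with signals of 10.5 on old p16-/-, 7.98 on old WT and 12.4 on young WT. It is counted in no comparison.

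**Figure D3:**
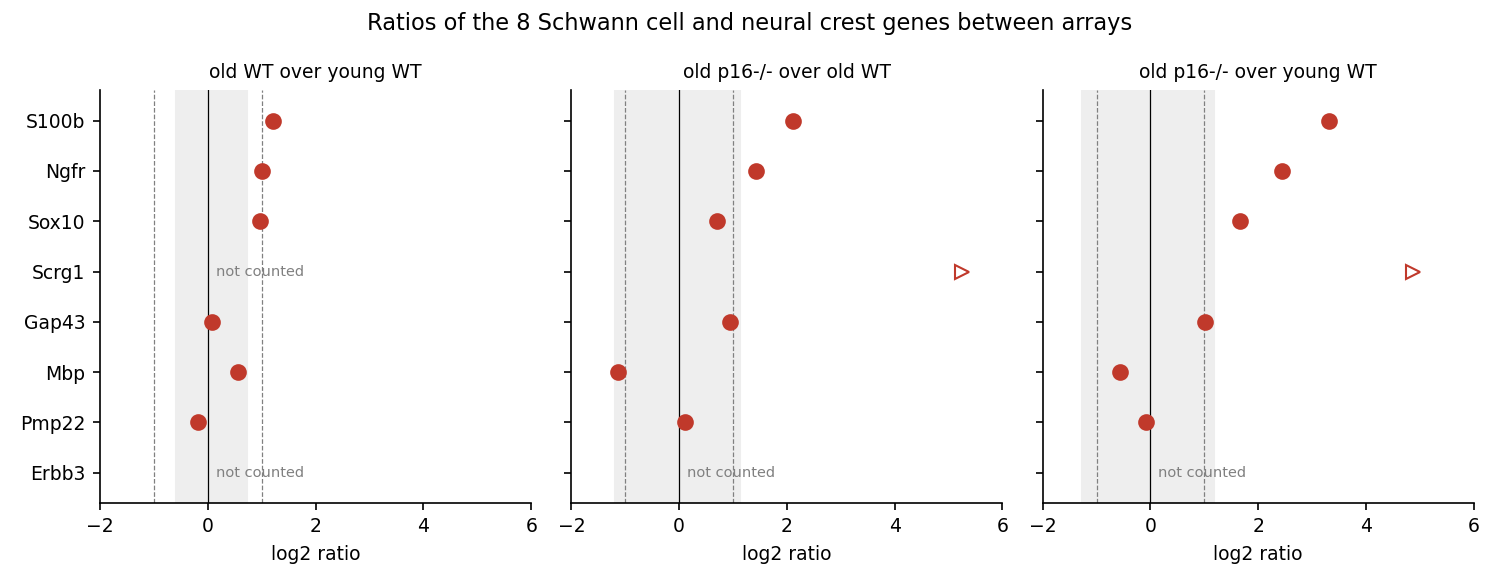
Log2 ratios of the 8 genes in the 3 comparisons, with triangles for bounds, dashed lines at 2-fold and a grey band that holds the middle 90% of all counted genes. S100b and Ngfr lie right of 2-fold in all 3 panels and Scrg1 in the 2 in which it is counted, whereas Mbp lies at -1.13 in old p16-/- over old WT and Pmp22 near 0.

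Other genes of the lineage were read from lists. The list counts are to be set beside the shares over all counted genes. Those were 5.89% higher and 6.61% lower by 2-fold or more in old p16-/- over old WT. They were 2.92% and 3.17% in old WT over young WT, and 6.34% and 6.96% in old p16-/- over young WT. Of 20 genes of Schwann precursors, immature and repair Schwann cells, 17 were counted in old p16-/- over old WT, with a median of 0.17. Of these, 1 was at least 2-fold higher and 1 lower (5.88% each), near the shares over all genes. The lower one was Ptn, the growth factor pleiotrophin, at -1.78 (-1.75 by a second probe). Members under 2-fold included Lgi4, a secreted protein of myelinating glia, at 0.75, Fabp7, a fatty acid binding protein of glial precursors, at 0.53, and the hedgehog ligand gene Dhh at 0.11. The crest and Schwann cell cadherin Cdh19 was above background on old p16-/- alone, at a signal of 66.0 that lies in the range of stray spots. In old WT over young WT, 1 of 16 was higher (Artn, the ligand artemin, at 1.97) and 1 lower (Gfap, an intermediate filament of glia, at -1.48). Against young WT, old p16-/- had 3 of 17 higher, among them Artn at 2.24 and the adhesion receptor Adgrg6 at 1.04, and 2 lower.

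Of 18 genes of myelin and its regulators, 12 were counted in old p16-/- over old WT, with a median of 0.10 and 1 higher and 1 lower. The higher gene was Ncmap, by a bound of 1.35, with a signal of 99.1 on old p16-/-. A second Ncmap probe was at background on old p16-/- and old WT. The lower gene was the myelin lipid-binding protein gene Pmp2, by a bound of -2.24, with a signal of 221 on old WT. Both signals lie in the range of stray calls. Prx, which encodes the myelin scaffold periaxin, stood at 0.87, and at 1.03 in old p16-/- over young WT. Egr2, the transcription factor that drives myelination, was at 0.08. In old WT over young WT, 1 of 12 was higher (Pmp2, 1.68) and 2 lower (Ncmap by a bound of -1.32 and Mobp at -1.28), all with signals under 1000.

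Of 18 neural crest specifiers, 16 were counted in old p16-/- over old WT, with 1 at least 2-fold higher, 2 lower and 13 within 2-fold, and a median of -0.29. Foxd3, the early crest factor, was above background on old p16-/- alone, at a signal of 99.0 in the range of stray calls, with a bound of 1.47. Zic1, a factor of the neural plate border, stood at -5.80, and its second probe at -0.91. The endothelin receptor gene Ednrb was at -1.62 with signals under 1000. Snai2 (-0.24), Twist1 (-0.32) and Sox9 (-0.05), which fibroblasts also express, were within 2-fold. In old WT over young WT the list had 1 of 15 higher (Tfap2a, by a bound of 1.12) and 2 lower, Pax3 at -1.79 and the retinoic acid binding protein gene Crabp1 at -1.40. Against young WT, old p16-/- had 1 of 15 higher (Tfap2a, by a bound of 1.68) and 4 lower.

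Among ligands and receptors, Nrg1, the neuregulin that acts on Schwann cells through ErbB3 and ErbB2, read 5632 on old p16-/-, 6005 on old WT and 3967 on young WT. Its co-receptor gene Erbb2 read 1059, 914 and 938 on the same arrays. Neither was 2-fold apart in any comparison. Of 8 neuregulin and ErbB genes, 6 were counted in old p16-/- over old WT, and Nrg4 (a bound of 2.63) and Nrg2 (1.18) were higher, both with signals under 1000. Of the neurotrophins and their receptors, 0 of 9 counted genes were higher and 2 lower in old p16-/- over old WT: Nradd, a relative of Ngfr, at -1.02, and Ntrk3 by a bound of -3.22 that rests on a spot of 437 on old WT, with 3 further probes at background.

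**Figure D4:**
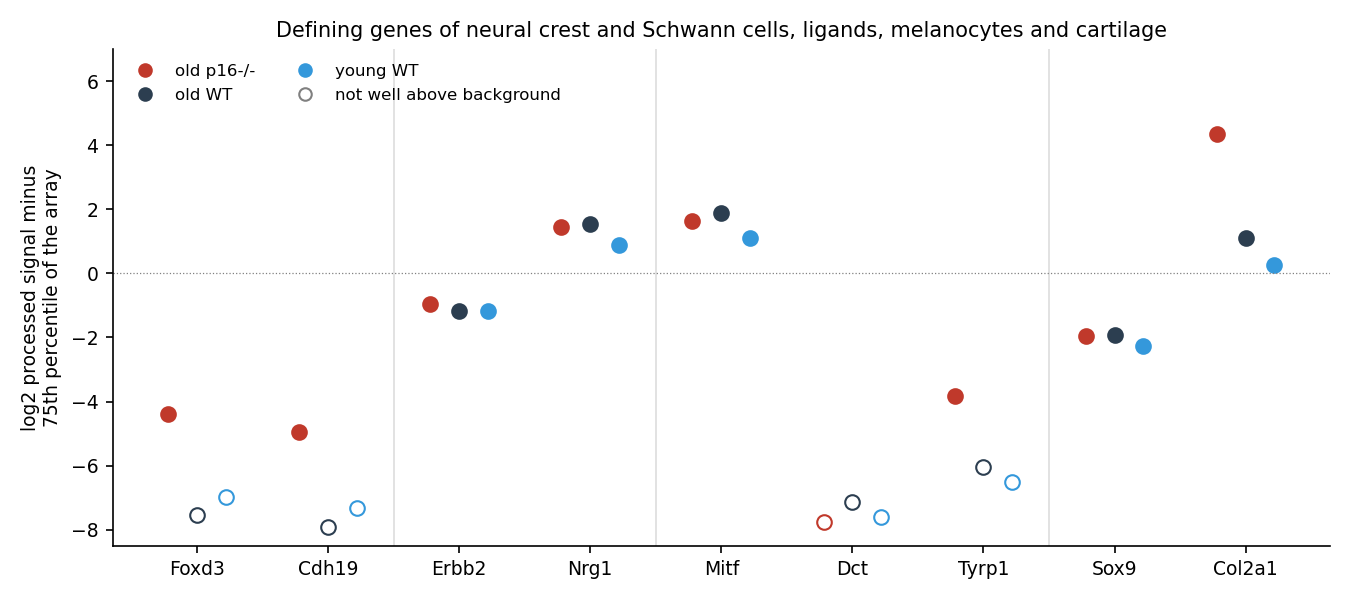
Levels (log2 processed signal minus the 75th percentile of the array) of defining genes of crest and Schwann cells, of ligands and receptors, of melanocytes and of cartilage on the old p16-/-, old WT and young WT arrays, by the brightest probe, with open circles where it was not well above background. Col2a1 is highest on old p16-/- and lowest on young WT, whereas Dct is at background on every array; levels are to be compared within a gene.

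Other cell types that share these genes were also read. Of 15 cartilage markers, 8 were well above background on old p16-/-, 7 on old WT and 6 on young WT. On at least 1 array 11 were, against 71.7% of all genes, and on all 3 arrays 5 were, against 61.9%. Their summed signal was 48500 on old p16-/-, 12626 on old WT and 5929 on young WT. Col2a1, the collagen of cartilage, made up most of it, at 42066, 4376 and 2580.2, with log2 ratios of 3.26 for old p16-/- over old WT and 0.82 for old WT over young WT. Of 10 cartilage genes counted in old p16-/- over old WT, 4 (40%) passed 2-fold upward, against 5.89% of all genes counted. They were Col2a1, Col10a1 at 1.92 and, by bounds, Cnmd at 2.94 and the proteoglycan gene Acan at 2.52. Comp was lower at -1.53. The old p16-/- signals of Cnmd (274) and Acan (218) and the old WT signal of Col10a1 (390) lie in the range of stray calls. Matn3, Ucma, Ihh and Snorc lay at background on every array. The summed cartilage signal had the same order of arrays as S100b, and its part in the values of S100b and Scrg1 was not tested. Of 9 adipocyte markers, 4, 3 and 3 were well above background on old p16-/-, old WT and young WT, with summed signals of 6236, 4279.8 and 3810.4. On at least 1 array 4 were, against 71.7% of all genes. The defining genes Adipoq and Plin1 were at background on all arrays. Lpl, a lipase of adipocytes and other cells, was higher in old p16-/- over old WT at 2.78. Its old WT signal of 406 lies in the range of stray calls.

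Melanocytes also descend from the crest through cells with Sox10. Of 13 melanocyte genes, 5 were well above background on old p16-/-, 6 on old WT and 4 on young WT. On at least 1 array 7 were, against 71.7% of all genes, and on all 3 arrays 4 were, against 61.9%. The pigment enzyme gene Dct, Kit, Mlana and Slc45a2 lay at background on every array. Of 7 genes counted in old p16-/- over old WT, 2 were higher, the channel gene Trpm1 at 2.23, whose other 2 probes were at background, and Tyrp1 by a bound of 2.03 at a signal of 146. That Tyrp1 signal and the old WT signal of Trpm1 (316) lie in the range of stray calls. The regulator Mitf, which fibroblasts and macrophages also express, was at -0.26 in old p16-/- over old WT and 0.78 in old WT over young WT.

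Macrophage markers had the opposite order of arrays. Of 12, 5 were well above background on old p16-/-, 10 on old WT and 11 on young WT. On at least 1 array 12 were, against 71.7% of all genes, and on all 3 arrays 4 were, against 61.9%. Their summed signals were 18034 on old p16-/-, 24787 on old WT and 36048 on young WT. Itgam made up most of each sum, at 14934, 19071 and 19992 by its brightest probe, whereas its other probes read at most 136. The sums therefore say little about the other macrophage markers. Old p16-/- over old WT had 2 of 11 counted genes higher and 6 lower (54.5%, against 6.61% of all genes). In old WT over young WT 0 were higher and 9 of 11 lower (81.8%, against 3.17%). Tyrobp, an adaptor of myeloid receptors, read 336 on old WT and 1747 on young WT and was at background on old p16-/-. The part of this shift in the values of the 8 genes was not tested. Fibroblast markers summed to 1293890, 1462780 and 1417910 on old p16-/-, old WT and young WT, with medians of -0.14 for old p16-/- over old WT and 0.22 for old WT over young WT.

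**Figure D5:**
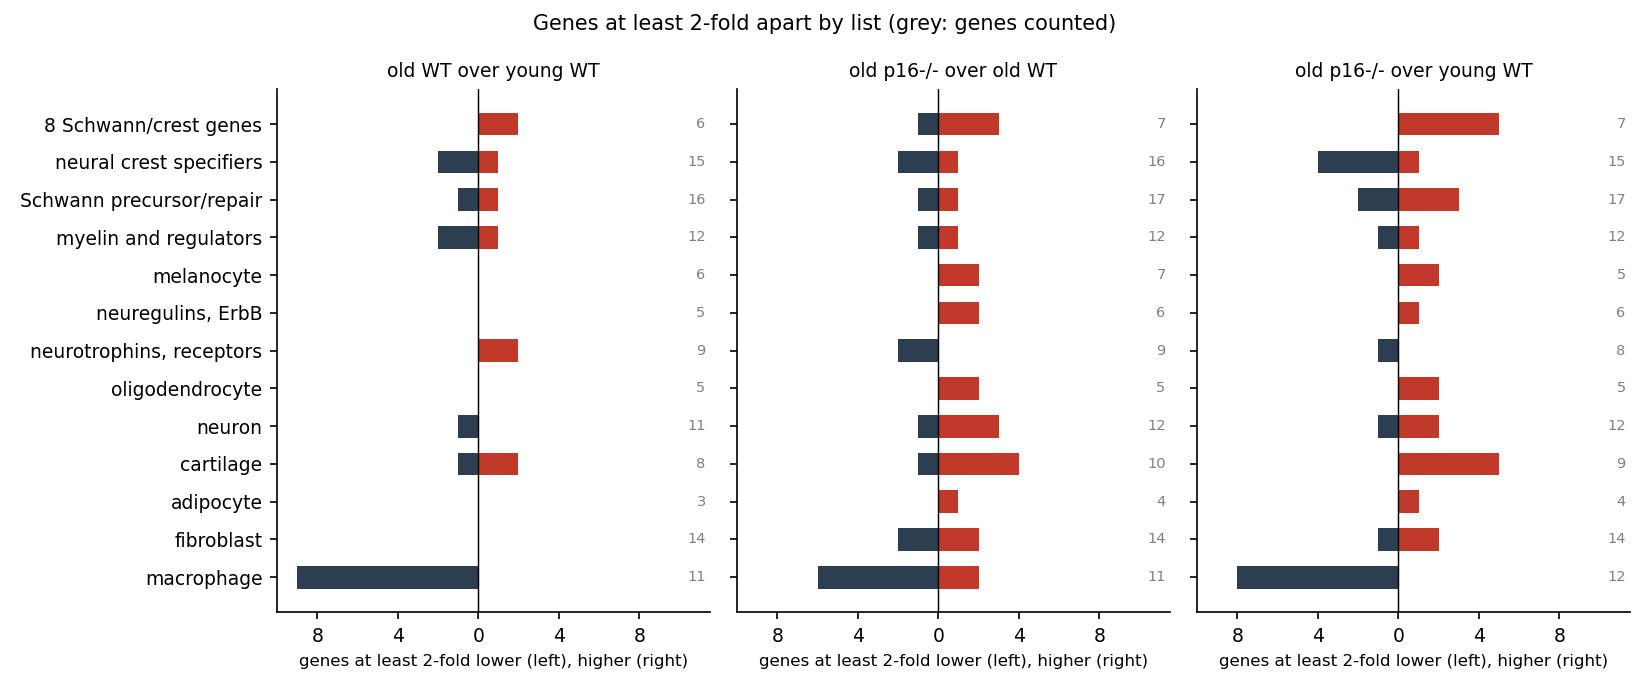
Number of genes at least 2-fold higher (right, red) and lower (left, dark) in each list for the 3 comparisons, with the number of counted genes in grey. The 8 genes and the cartilage markers have more genes to the right than to the left in all 3 panels, and the macrophage markers have more to the left; 1 array per group gives no error for these counts.

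The genes whose profile lay nearest were sought for the 6 members above background on all arrays, and so not for Scrg1 or Erbb3, among 8700 genes above background on all arrays, with an ordinary symbol and a signal of at least 1000 on the brightest array, by the distance between log2 levels centred on each gene's mean over 3 arrays. Nearest to S100b were Defb1 (0.19), Klk1b26 (0.30) and Klk1b5 (0.31). Nearest to Ngfr were Slc38a5 (0.06), Kbtbd11 (0.08) and Shisa2 (0.18), and nearest to Sox10 were Prl2c1 (0.09), Ogn (0.09) and Sobp (0.12). The nearest gene lay closer for the other members, at 0.00664 from Gap43 (Rnf125), 0.00255 from Pmp22 (Atic) and 0.0169 from Mbp (Azin2). The next ones were B3galt6 and Shf for Gap43, Scd2 and Fxr1 for Pmp22, and Pitpnc1 and Angptl2 for Mbp. With 3 arrays a profile has 3 values, so such nearness is a description.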

How the data were processed

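Total RNA labelled with Cy3 was measured on 3 Agilent arrays, 1 per group, on cells of day 8. Agilent Feature Extraction 11.5.1.1 gave the deposited spot intensities, which are linear, per the file headers; the processed intensity is background-subtracted and was not scaled between arrays. Feature Extraction's 0 or 1 flags per spot (deposited by the authors, other unit) gave detection and outliers. The deposited series value table held the same intensities (39030 of 39030 singly spotted probes, to a relative tolerance of 0.0001, on each array), so its scale is linear, without centring; its column medians were 132 for old p16-/-, 135 for old WT and 137 for young WT. Arrays hold signal over background in place of read depth, and their number limits the precision.

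Control spots (1377) and outlier spots (267, 246 and 246 on old p16-/-, old WT and young WT) were left out, except that the counts of stray calls kept outlier spots. No spot was saturated. Spots of 1 probe were averaged as log2 processed signal, from which the array's 75th percentile was then taken away. Accessions without version were matched to RefSeq genes of GRCm38.p6, which named 27508 of 39429 probes and 20886 genes, 20825 of them with a value on every array; the probes were designed on mm9, so no probe coordinates are given. A gene's brightest probe stood for it, and it was counted if any of its probes was well above background on 1 of the 2 arrays. In a bound, the dim side is the probe's own level or, if higher, the lowest level called above background on that array (signals of 46.9, 35.7 and 55.4 on old p16-/-, old WT and young WT). Differences were described by size, at least 2-fold, in 3 comparisons with no test. The ratio computation was tested on simulated data. Spot error came from 399 probes spotted 10 times.

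The 8 genes and the lists (159 further entries) were chosen with earlier results of these data known. The naming rule takes every probe of the 8 genes and, per list and direction, up to 4 genes at least 2-fold apart, some defining markers at any level, up to 4 genes within 2-fold, and the 3 nearest profiles. Spot-level median signals stood in for the mean signals planned for normexp (offset 50). Python 3.11.15, pandas 2.3.3, numpy 2.4.6 and limma 3.58.1 in R 4.3.3 were used. Of 11 alternatives run, 2 were chosen after seeing the data (normexp on median signals and a signal of at least 1000). Some genes of the lists are counted but not reported here by name.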

Additional observations from a re-analysis of the deposited data

How the results depend on the processing

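S100b, Scrg1, Sox10, Mbp and Pmp22, where counted in both, kept their side of the 2-fold threshold under each alternative, with ranges over settings of 2.01 to 2.16 for S100b, 3.55 to 5.35 for Scrg1 and 1.39 to 1.48 for Ngfr in old p16-/- over old WT, and 1.05 to 1.22 for S100b in old WT over young WT; Pmp22, near 0 in old p16-/- over young WT, changed sign, between -0.13 and 0.06. A filter on both arrays leaves Scrg1 out, and a minimum signal of 1000 leaves out Sox10 in all comparisons, S100b and Gap43 in old WT over young WT, and Mbp in old p16-/- over young WT. Ngfr in old WT over young WT crossed the threshold in 2 alternatives and Gap43 in old p16-/- over young WT in 3. The count of genes at least 2-fold higher in old WT over young WT was 1 in place of 2 with normexp correction, with median scaling and with that minimum, and 3 with no background filter, which adds Scrg1 at background on both arrays. For old p16-/- over old WT it was 2 in place of 3 with a filter on both arrays. For old p16-/- over young WT it was 4 in place of 5 with normexp correction, percentiles of detected probes, cyclic loess, a filter on both arrays and the minimum of 1000. Medians moved by more than the spot error of a ratio (0.08) as follows. In old WT over young WT the median was 0.56 with normexp correction, 0.87 with the mean of all probes and 0.56 with the minimum of 1000. In old p16-/- over old WT it was 0.83 with no background filter and with a filter on both arrays, and 1.19 with that minimum. In old p16-/- over young WT it was 1.14 with normexp correction, 1.34 with no filter and with a filter on both arrays, and 2.44 with that minimum. The filters change which genes are counted; for normexp the cause was not tested. No paired analysis was possible because each group has 1 array. Leaving out a replicate was likewise not possible. Signals in the range of stray calls limit Sox10 on all arrays, S100b and Gap43 on both WT arrays and Mbp on old p16-/-.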

Other observations

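Genes used as markers of neurons and oligodendrocytes were read as well, since Gap43 and Mbp are also genes of the central nervous system. Of 13 neuron markers, 12 were counted in old p16-/- over old WT, 3 at least 2-fold higher and 1 lower, with a median of 0.26. The shares over all genes there were 5.89% higher and 6.61% lower. Map2, a microtubule protein of dendrites, had signals of 568 on old p16-/-, 153 on old WT and 162 on young WT, and log2 ratios of 1.89 for old p16-/- over old WT and 0.98 by a second probe. The neurofilament genes went both ways, with Nefh at 2.11 (another probe was at background) and Nefm at -1.15, and Nefl was within 2-fold at -0.88. All 3 Map2 readings lie in the range of stray calls. So do the old p16-/- and old WT readings of Nefh (286 and 66.0) and Nefm (208 and 461). Rbfox3 was above background on old p16-/- by 1 of 3 probes, at a signal of 339 that lies in the range of stray spots. Stmn2, a microtubule regulator of growing axons, was bright, at 38952 on old p16-/-, 24062 on old WT and 25724 on young WT. In old WT over young WT, 0 of 11 neuron markers were at least 2-fold higher and 1 was lower (Nefh, -1.30).

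Of 8 oligodendrocyte markers, 5 were counted in old p16-/- over old WT, and 2 were at least 2-fold higher, against 5.89% of all genes. The claudin gene Cldn11, known from myelin and from Sertoli cells, read 1433 on old p16-/-, 263 on old WT and 206 on young WT, a log2 ratio of 2.44 for old p16-/- over old WT. Both WT readings of Cldn11 lie in the range of stray calls. The myelin-associated cytoskeletal gene Ermn stood at 2.08 by its brighter probe, with signals of 18264 on old p16-/- and 4312 on old WT, and at 0.16 by its second probe. Olig2, Sox8 and Opalin lay at background on every array.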
